A study of Mus musculus with 12 samples.

Results

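A set of 9 genes whose products hold the endoplasmic reticulum (ER) against the plasma membrane, or let calcium out of it, were followed through hippocampal mRNA of mice in which the chromatin protein Hp1bp3 was knocked down. They were the junctophilin genes Jph1, Jph3 and Jph4, the ryanodine receptor genes Ryr1, Ryr2 and Ryr3, and the IP3 receptor genes Itpr1, Itpr2 and Itpr3. The members were taken by symbol from the table of expected counts, which gave 9 genes of 22236, and all 9 were among the 15853 genes that passed the filter on low counts. Jph3 had been named by the study itself from these same libraries, so its place among the members is not independent of its fall.

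The animals were adult male mice of 2 inbred strains, C57BL/6J (B6) and DBA/2J (D2), 3 to 5 months old, injected on both sides of the hippocampus with an adeno-associated virus. KD mice received AAV9-shRNA-Hp1bp3, which carries a short hairpin RNA against Hp1bp3, and Ctrl mice received a scrambled hairpin in the same kind of virus (AAV-scrmb-shRNA). All groups therefore carried virus and hairpin, and uninjected mice were not analysed here. Whole hippocampus was taken at least 6 weeks later, so cells with and without virus were measured together, and in such bulk tissue fewer cells of a type cannot be told apart from less RNA per cell. There were 12 libraries, 3 per combination of strain and treatment (B6 Ctrl, B6 KD, D2 Ctrl and D2 KD).

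Junctophilins span the cleft between both membranes, with one end in the ER and the other at the plasma membrane, and so hold voltage-gated channels close to calcium release channels. Ryanodine receptors open when calcium or a membrane calcium channel triggers them, and IP3 receptors open when phospholipase C has made inositol trisphosphate (IP3) and calcium is present. In neurons these junctions are known for coupling calcium release to calcium-activated potassium channels, which set the afterhyperpolarization that follows action potentials. Jph3 and Jph4 are the junctophilins of the brain, Jph1 that of skeletal muscle, Ryr1 the receptor best known from skeletal muscle and Ryr2 from heart. Itpr1 is the main neuronal IP3 receptor.

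Levels are given as CPM, a gene's counts scaled to its library's total with TMM factors, which can be compared between libraries for a given gene. Library totals ran from 18213084 to 39420219 expected counts. No gene of the neuron, glia and hippocampal subfield marker lists was at 0 in all libraries. Summed neuron markers ran from 4989 to 6384 CPM and CA1 markers from 406 to 737 CPM. Genes of the choroid plexus, a neighbouring secretory tissue, varied from 229 to 8261 CPM in sum, within every group. The target itself went against 1 label. Hp1bp3 was at 309, 293 and 310.4 CPM in B6 Ctrl and at 185, 181 and 259 CPM in B6 KD, without overlap. In D2 it was at 227, 214 and 234 CPM in Ctrl and at 177 and 163 CPM in KD 1 and KD 2, while the library labelled D2 KD 3 had 229.9 CPM, inside the Ctrl range. Values for D2 KD below include that library except where its removal is stated. By edgeR's quasi-likelihood test the estimate for Hp1bp3 was -0.54 ± 0.15 (log2, SE) in B6, with an adjusted p of 0.076, and -0.25 ± 0.15 in D2, with an adjusted p of 1.

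The brain junctophilins were the members with the highest levels per transcript length and the only 2 whose KD estimates passed an unadjusted p of 0.05. Jph3 (ENSMUSG00000025318, chr8:121729623-121794276, plus strand) and Jph4 (ENSMUSG00000022208, chr14:55106826-55116935, minus strand) are protein-coding genes in GENCODE M21 on GRCm38. Their promoters are shown because the levels of both genes had a Pearson's r of 0.90 over the 12 libraries, a description. That value was not particular to this pair, since Ryr2 and Ryr3 had 0.896 and Jph1 and Itpr1 0.893. Nothing about shared control is drawn from it. The RefSeq windows on GRCm38.p6 give the 250 bases before each RefSeq start, chr8:121730309-121730558 on the plus strand for Jph3 and chr14:55116936-55117185 on the minus strand for Jph4. The GENCODE gene of Jph3 begins upstream of that window. Capitals mark matches to GGGCGG or its reverse complement CCGCCC, the core of the GC box.
Jph3: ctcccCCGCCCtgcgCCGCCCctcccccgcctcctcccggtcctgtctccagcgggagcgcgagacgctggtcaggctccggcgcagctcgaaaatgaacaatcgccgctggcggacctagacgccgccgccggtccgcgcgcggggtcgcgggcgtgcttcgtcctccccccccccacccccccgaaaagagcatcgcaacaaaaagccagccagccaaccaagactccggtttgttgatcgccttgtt
Jph4: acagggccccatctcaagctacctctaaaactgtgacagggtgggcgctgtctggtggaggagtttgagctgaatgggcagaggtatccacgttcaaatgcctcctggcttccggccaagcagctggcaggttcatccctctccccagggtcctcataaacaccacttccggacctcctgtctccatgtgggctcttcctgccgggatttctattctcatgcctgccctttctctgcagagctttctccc
The Jph3 window held 70% G or C and 31 CG dinucleotides, against medians of 52.4% and 6 over all 32851 windows of that length. The Jph4 window held 56.8% G or C and 5 CG dinucleotides. GGGCGG, read on both strands, matched Jph3 at 245 and 235 bases before the start and did not match Jph4, while 32.7% of all windows held it. TGACG (the core of the cAMP response element, in 17.8% of windows), CACGTG (the E-box, 6.02%), CCAAT (33.8%) and TATAAA (12.4%), also read on both strands, matched neither window. These are matches of letters only.

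Jph3 fell in B6 KD. Its levels were 328, 286 and 303 CPM in B6 Ctrl and 217, 213 and 200 CPM in B6 KD. The 3 KD libraries lay close together and well below the lowest Ctrl library. The log2 fold change was -0.54 ± 0.10 (SE, edgeR adjusted p = 0.0361), a fall of 31.1%. The call was kept in 5 of 12 fits that left out 1 library, and over the 12 its edgeR adjusted p ran from 0.0168 to 0.178. It was lost without B6 Ctrl 1, B6 Ctrl 3, B6 KD 1, B6 KD 2 or D2 Ctrl 1, where 0 of all genes were called. It was also lost without D2 Ctrl 2 or D2 KD 1, where 45 and 124 genes were called, against 418 with all libraries. The log2 fold change of Jph3 stayed between -0.61 and -0.51 in all 12 fits. In D2 the levels were 318, 289 and 310.2 CPM in Ctrl and 256 and 233 CPM in KD 1 and KD 2, with 304 CPM in the library labelled D2 KD 3. KD 1 and KD 2 lay below all Ctrl libraries of the strain and the library labelled D2 KD 3 lay among them, as it did for Hp1bp3. The D2 log2 fold change was -0.21 ± 0.10 (SE, unadjusted p = 0.061, edgeR adjusted p = 1). Leaving out the library labelled D2 KD 3 gave -0.32, and its edgeR adjusted p was 0.468.

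Jph4 had a higher level and, in B6, a wider spread. Its levels were 618, 485 and 519 CPM in B6 Ctrl and 383, 381 and 268 CPM in B6 KD. The groups did not overlap, and KD 3 was far below the other KD libraries. KD 3 was also the lowest B6 KD library in Jph3, at 200 CPM. Yet its Hp1bp3 was the least reduced, at 259 CPM against 185 and 181 CPM in KD 1 and KD 2. The log2 fold change in B6 was -0.65 ± 0.15 (SE), larger than that of Jph3, and its edgeR adjusted p of 0.0512 missed the threshold. In D2 the levels were 542, 501 and 465.1 CPM in Ctrl and 364, 387 and 464.6 CPM in KD. Here too the groups did not overlap, though the highest KD library, the one labelled D2 KD 3, was only just below the lowest Ctrl library. The D2 log2 fold change was -0.31 ± 0.15 (SE, unadjusted p = 0.0667, edgeR adjusted p = 1), and -0.42 without the library labelled D2 KD 3 (adjusted p = 0.586).

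Jph1 (ENSMUSG00000042686, chr1:16964560-17097889, minus strand) was the low junctophilin. Its levels were 51.7, 56.05 and 61 CPM in B6 Ctrl and 51.6, 43 and 41.06 CPM in B6 KD. The groups were separated by less than 1 CPM, between Ctrl 1 and KD 1. The log2 fold change was -0.31 ± 0.23 (SE, edgeR adjusted p = 0.481). In D2 its levels were 61.2, 50.5 and 34.3 CPM in Ctrl and 34.6, 36.7 and 60.3 CPM in KD. Here Ctrl 3 and the library labelled D2 KD 3 lay at opposite ends from their groups, unlike in Jph3 and Jph4, where Ctrl 3 was with the other Ctrl libraries. The remaining family gene, Jph2 of the heart, is no member and was named after its level was seen, which was 0.539 to 1.57 CPM.

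**Figure D1:**
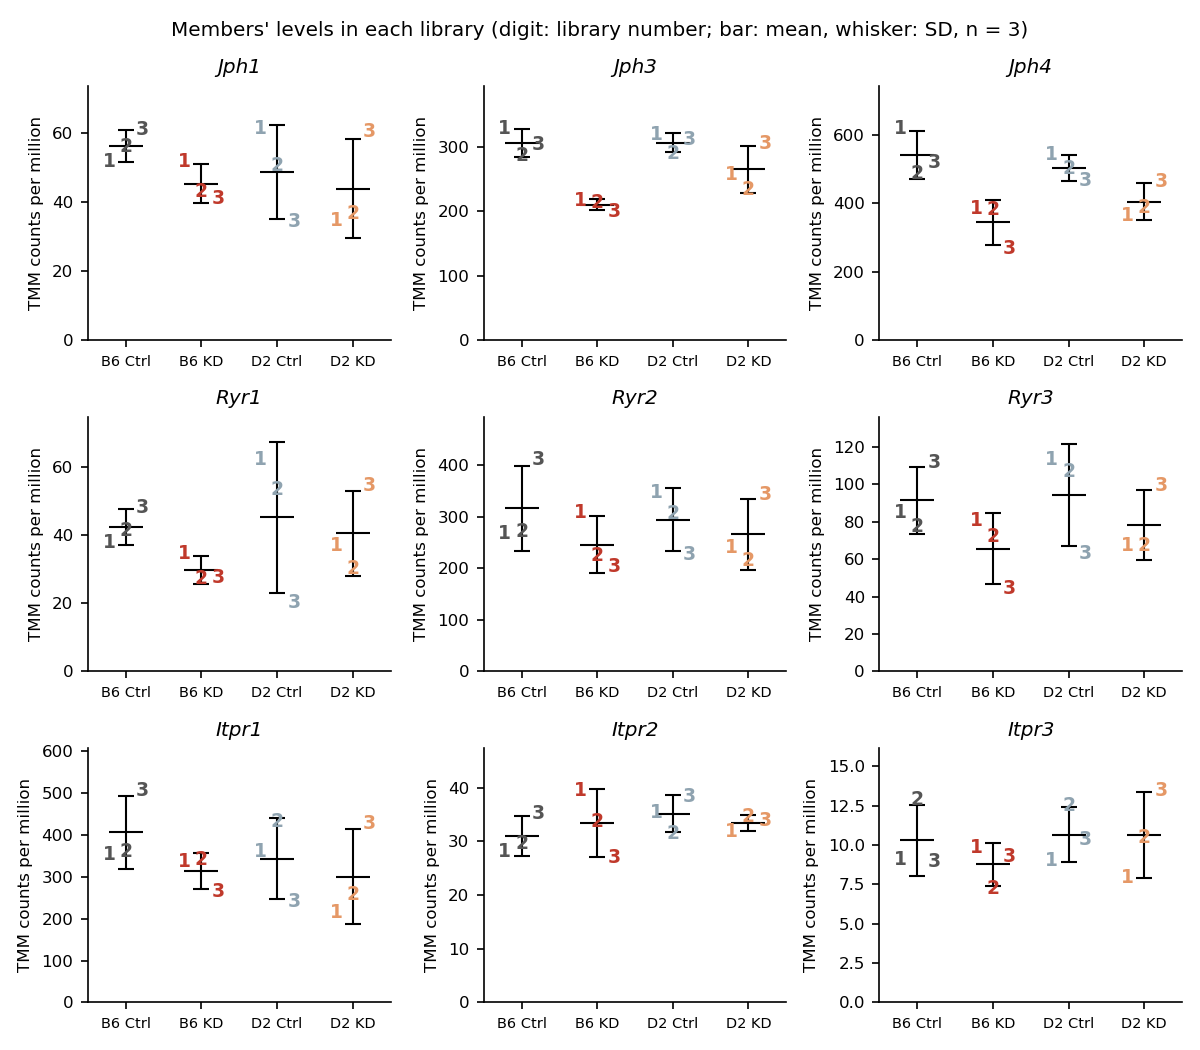
Levels of the 9 members in CPM (vertical axes, from 0) in the 4 groups (horizontal axes). Digits give the library number, bars the group mean and whiskers the SD of 3 libraries. The B6 KD libraries of Jph3 lie between 200 and 217 CPM, below all B6 Ctrl libraries, while the D2 Ctrl libraries of Ryr1 spread from 20.2 to 62.4 CPM.

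The ryanodine and IP3 receptors are tetrameric channels that share the architecture of their pore. The coding sequence of the ion selectivity filter is shown to let the 6 channels be compared as transcripts. Each line gives 48 bases of the coding strand from GENCODE M21 on GRCm38, with the 6 codons of the filter in capitals and 5 codons on either side.
Ryr1: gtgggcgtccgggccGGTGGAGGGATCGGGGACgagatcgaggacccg
Ryr2: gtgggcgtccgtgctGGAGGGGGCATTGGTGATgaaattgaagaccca
Ryr3: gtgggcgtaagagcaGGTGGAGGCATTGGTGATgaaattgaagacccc
Itpr1: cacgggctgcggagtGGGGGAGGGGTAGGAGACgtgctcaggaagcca
Itpr2: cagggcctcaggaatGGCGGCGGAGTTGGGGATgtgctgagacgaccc
Itpr3: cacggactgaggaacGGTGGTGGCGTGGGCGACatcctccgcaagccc
All 6 stretches lay within a single exon. They are at chr7:29005583-29005630 in exon 102 of 106 (Ryr1), chr13:11560612-11560659 in exon 101 of 105 (Ryr2), chr2:112636616-112636663 in exon 100 of 104 (Ryr3), chr6:108518773-108518820 in exon 58 of 62 (Itpr1), chr6:146158896-146158943 in exon 52 of 56 (Itpr2) and chr17:27118616-27118663 in exon 54 of 58 (Itpr3). Ryr2 and Ryr3 were identical at 41 of the 48 bases, Ryr1 matched each of them at 36, and the IP3 receptors matched each other at 30 to 34. Between the families 20 to 28 bases matched. Over whole transcripts, none of the 36 pairs of members shared a stretch of 75 bases, the read length, so no stretch of that length fitted a pair of members equally.

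Ryr2 (ENSMUSG00000021313, chr13:11553102-12106945, minus strand) was the most abundant ryanodine receptor. Its levels were 267, 271 and 412 CPM in B6 Ctrl and 309, 225 and 204 CPM in B6 KD, which overlapped. The log2 fold change was -0.36 ± 0.24 (SE, edgeR adjusted p = 0.435). In D2 the levels were 348, 307 and 227 CPM in Ctrl and 240.5, 214 and 344 CPM in KD, which overlapped as well. The D2 estimate was -0.14 ± 0.24 (adjusted p = 1).

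Ryr3 (ENSMUSG00000057378, chr2:112631355-113217096, minus strand), which is broadly expressed at low level in brain, had 85.2, 77.7 and 112 CPM in B6 Ctrl and 80.7, 71.9 and 44.2 CPM in B6 KD. The groups overlapped through Ctrl 2 and KD 1. The log2 fold change was -0.48 ± 0.28 (SE, edgeR adjusted p = 0.359). The D2 levels were 113, 107 and 62.8 CPM in Ctrl and 67.3, 67.2 and 99.7 CPM in KD, with an estimate of -0.27 ± 0.28 (adjusted p = 1). As for Jph1, the low Ctrl library was Ctrl 3 and the high KD library was the one labelled D2 KD 3.

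Ryr1 (ENSMUSG00000030592, chr7:29003344-29125179, minus strand) had 38, 41.4 and 48.3 CPM in B6 Ctrl and 34.7, 27.5 and 27.6 CPM in B6 KD. The groups did not overlap. Its log2 fold change was -0.51 ± 0.35 (SE, edgeR adjusted p = 0.439), close to that of Jph3 but with a wider error, which is estimated over all 4 groups. In D2 the levels were 62.4, 53.5 and 20.2 CPM in Ctrl and 37.1, 30.4 and 54.6 CPM in KD. Ctrl 3 was the lowest and Ctrl 1 the highest of all 12 libraries. The D2 estimate was -0.16 ± 0.34 (adjusted p = 1), and its direction depended on the libraries kept. Leaving out 1 library at a time gave from -0.51 without D2 Ctrl 3 to 0.135 without D2 Ctrl 1, and 0.0164 without D2 KD 2, with edgeR adjusted p of at least 0.731. Skeletal muscle markers were at 4.14 to 6.66 CPM in sum in all libraries, and their part in the level of Ryr1 was not tested.

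Itpr1 (ENSMUSG00000030102, chr6:108213096-108551109, plus strand) carried most IP3 receptor mRNA. Its levels were 353, 360 and 506 CPM in B6 Ctrl and 336, 342 and 265 CPM in B6 KD. The groups did not overlap, with KD 2 just below Ctrl 1. The log2 fold change was -0.37 ± 0.28 (SE, edgeR adjusted p = 0.483). In D2 the levels were 359, 431 and 240 CPM in Ctrl and 215, 257 and 429 CPM in KD, with an estimate of -0.20 ± 0.28 (adjusted p = 1). Leaving out 1 library at a time gave from -0.54 without the library labelled D2 KD 3 to 0.0037 without D2 Ctrl 2, with edgeR adjusted p of at least 0.647.

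Itpr2 and Itpr3 stood apart from the other channels. Itpr2 (ENSMUSG00000030287, chr6:146108299-146502223, minus strand), the IP3 receptor known from astrocytes, was the only member with a higher estimate in B6 KD. Its levels were 28.1, 29.6 and 35.3 CPM in B6 Ctrl and 39.5, 33.7 and 27 CPM in B6 KD, with a log2 fold change of 0.11 ± 0.14 (SE, edgeR adjusted p = 0.7). Astrocyte markers summed to 4578 to 5493 CPM in B6 Ctrl and 5432 to 7266 CPM in B6 KD, and the library highest in those markers in B6, KD 1, was also the highest in Itpr2. In D2 the library highest in those markers, Ctrl 3 at 7789 CPM, was again the highest in Itpr2, at 38.3 CPM. The library next in those markers in B6, KD 3 at 6085 CPM, was the lowest of all 12 in Itpr2, at 26.95 CPM. Their part in the level of Itpr2 was not tested. Itpr3 (ENSMUSG00000042644, chr17:27057304-27122223, plus strand), the receptor known from secretory epithelia, was the lowest member at 7.24 to 13.5 CPM, with estimates of -0.22 ± 0.22 in B6 (SE, edgeR adjusted p = 0.607) and 0.00 ± 0.22 in D2.

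Across the members, 1 of 9 was called in B6 (Jph3, lower), beside 2.64% of all genes tested. At an unadjusted p under 0.05 there were 2 of 9, Jph3 and Jph4, beside 20.6% of all genes, and 2 of 9 is close to that background. DESeq2 called Jph3 and Jph4 in B6, beside 10.7% of all genes, and limma-voom called Jph3, beside 2.32%. The estimates of 8 of 9 members were below 0 in B6 and in D2, beside 49.4% and 48.7% of all genes. The members' median log2 fold change was -0.37 in B6 and -0.16 in D2, where that of all genes was 0.0025 and 0.0041. In B6 every KD library was below every Ctrl library for 5 of 9 members (Jph1, Jph3, Jph4, Ryr1 and Itpr1), beside 14.1% of all genes. In D2 this held for Jph4 alone, beside 2.98% of all genes.

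In D2 edgeR called 0 members and 0% of all genes, and at an unadjusted p under 0.05 there were 0 members beside 2.85% of genes. DESeq2 called 0 members in D2 (0.00631% of genes) and limma-voom likewise 0 (0%). Averaged over strains, edgeR called 0 members and 0% of genes. The averaged estimates were -0.37 ± 0.07 for Jph3 (SE, adjusted p = 0.054, which no gene was below) and -0.48 ± 0.11 for Jph4 (adjusted p = 0.0621). At an unadjusted p under 0.05 these 2 members stood beside 19.2% of genes. DESeq2 called both (7.83% of genes) and limma-voom called neither (0%). With the library labelled D2 KD 3 left out edgeR called both on average, with adjusted p of 0.00921 for Jph3 and 0.0303 for Jph4. That fit called 799 of all genes, so the gain was not particular to these members. Both were also called with B6 KD 3 left out, among 400 genes, and Jph3 with D2 Ctrl 3 left out, among 326. The other 7 members had averaged estimates from -0.38 (Ryr3) to 0.02 (Itpr2), with adjusted p from 0.324 to 0.937.

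**Figure D2:**
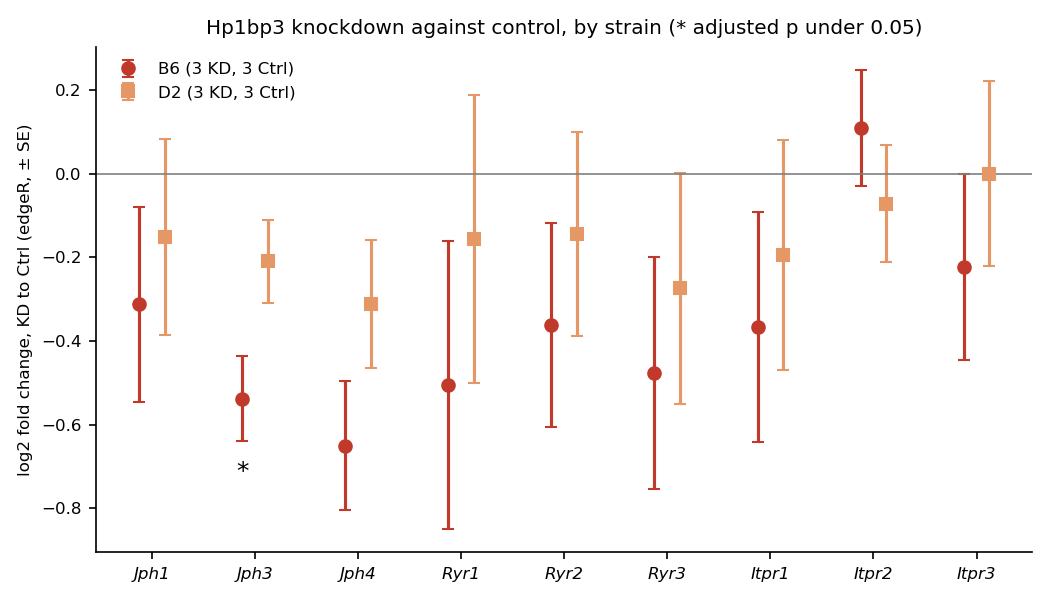
Log2 fold changes of KD against Ctrl (vertical axis, edgeR estimate ± SE) for the 9 members in B6 (circles) and D2 (squares), with 3 KD and 3 Ctrl libraries each. Jph3 and Jph4 have the smallest errors among the members with estimates below -0.5 in B6, and only Jph3 in B6 carries the mark for an adjusted p under 0.05.

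Whether the knockdown effect differed between the strains was tested with the interaction term. No member passed it, nor did any gene (0%). Among the members the largest interaction relative to its error was that of Jph3, at 0.33 ± 0.14 on the log2 scale (unadjusted p = 0.0412, edgeR adjusted p = 0.83). Of all genes, 5.91% had an unadjusted p under 0.05. The KD, strain and interaction comparisons rest on the same 12 libraries. A call in B6 without a call in D2 does not show that the strains differ for Jph3.

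Other signals in the tissue differed between the B6 groups along with Jph3 and Jph4. The summed interferon response list was at 62.9 to 73.7 CPM in B6 Ctrl and at 376 to 1160 CPM in B6 KD. Microglia markers summed to 325 to 384 CPM in B6 Ctrl and 491 to 807 CPM in B6 KD. Markers of CA1 pyramidal cells summed to 554 to 737 CPM in B6 Ctrl and 406 to 497 CPM in B6 KD. All 3 sums were without overlap between the groups, as Jph3 and Jph4 were, whereas general neuron markers overlapped at 5793 to 6295 CPM against 4989 to 6220 CPM. No gene of these lists was at 0 throughout. In D2 the CA1 sums overlapped, at 505 to 560 CPM in Ctrl and 445 to 567 CPM in KD. The D2 microglia sums overlapped too, at 284 to 493 CPM in Ctrl and 299.5 to 550 CPM in KD. In D2 the interferon list was at 313 and 429 CPM in KD 1 and KD 2 and at 85.9 CPM in the library labelled D2 KD 3, with 71.1 and 69.7 CPM in Ctrl 1 and Ctrl 2 and 182 CPM in Ctrl 3. D2 Ctrl 3 was thus the highest D2 Ctrl library in this list, and it was also the highest in Hp1bp3, at 234 CPM. Whether the libraries D2 Ctrl 3 and D2 KD 3 carry the right labels was not tested, and the labels were kept. The part of these signals in the levels of the members was not tested.

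The 3 ryanodine receptors, Itpr1 and Jph1 resembled each other over the libraries. As a description over the 12 libraries, Pearson's r of log2(CPM + 1) was 0.90 between Jph3 and Jph4 and 0.70 to 0.90 among Jph1, Ryr1, Ryr2, Ryr3 and Itpr1. Between Jph3 and those 5 genes r was 0.40 to 0.66, and between Jph4 and them 0.52 to 0.79. Itpr2 had r of -0.06 to 0.33 with the other members. The libraries share a depth, a dissection and a group, and nothing is drawn from these values about shared control.

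Most of these genes have long transcripts, and other long genes moved with them. The longest annotated transcripts of Ryr1, Ryr2 and Ryr3 have 15358, 16814 and 15468 bases and that of Itpr1 9870, against 3637 for Jph3 and 4489 for Jph4. Over 863 other genes with a transcript of at least 8000 bases, the median deviation from the mean of 12 libraries was 0.27 on the log2 scale in B6 Ctrl 3, 0.20 in D2 Ctrl 2 and 0.14 in D2 Ctrl 1 and in the library labelled D2 KD 3. It was -0.21 in B6 KD 3, -0.19 in D2 Ctrl 3, -0.15 in D2 KD 1 and -0.16 in D2 KD 2. Ryr2 deviated by 0.58, 0.16, 0.34, 0.33, -0.42, -0.27, -0.19 and -0.35 in those 8 libraries, in the same directions. In the other 4 libraries the median was smaller, at -0.09, -0.04, 0.10 and 0.0099 in B6 Ctrl 1, B6 Ctrl 2, B6 KD 1 and B6 KD 2, and Ryr2 deviated by -0.04, -0.02, 0.17 and -0.29. Ryr2 thus did not follow it in B6 KD 2. Jph3 and Jph4 did not follow it in D2 Ctrl 3, where they deviated by 0.21 and 0.09. In the rest of those 8 libraries both had its direction, Jph3 at 0.17, 0.11, 0.25, 0.18, -0.42, -0.06 and -0.20 in the order above. In the other 4 libraries both went against it, Jph3 at 0.29, 0.10, -0.30 and -0.33. Itpr2, with 11679 bases, did not follow it in D2 Ctrl 3 either, at 0.21. Jph1, with 4809 bases, deviated by -0.46 in D2 Ctrl 3 although its transcript is shorter than 8000 bases. The part of this shift in the channels' fold changes was not tested. The median is taken from these same libraries, so the alternative fit below, which has it as a covariate, cannot decide this.

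**Figure D3:**
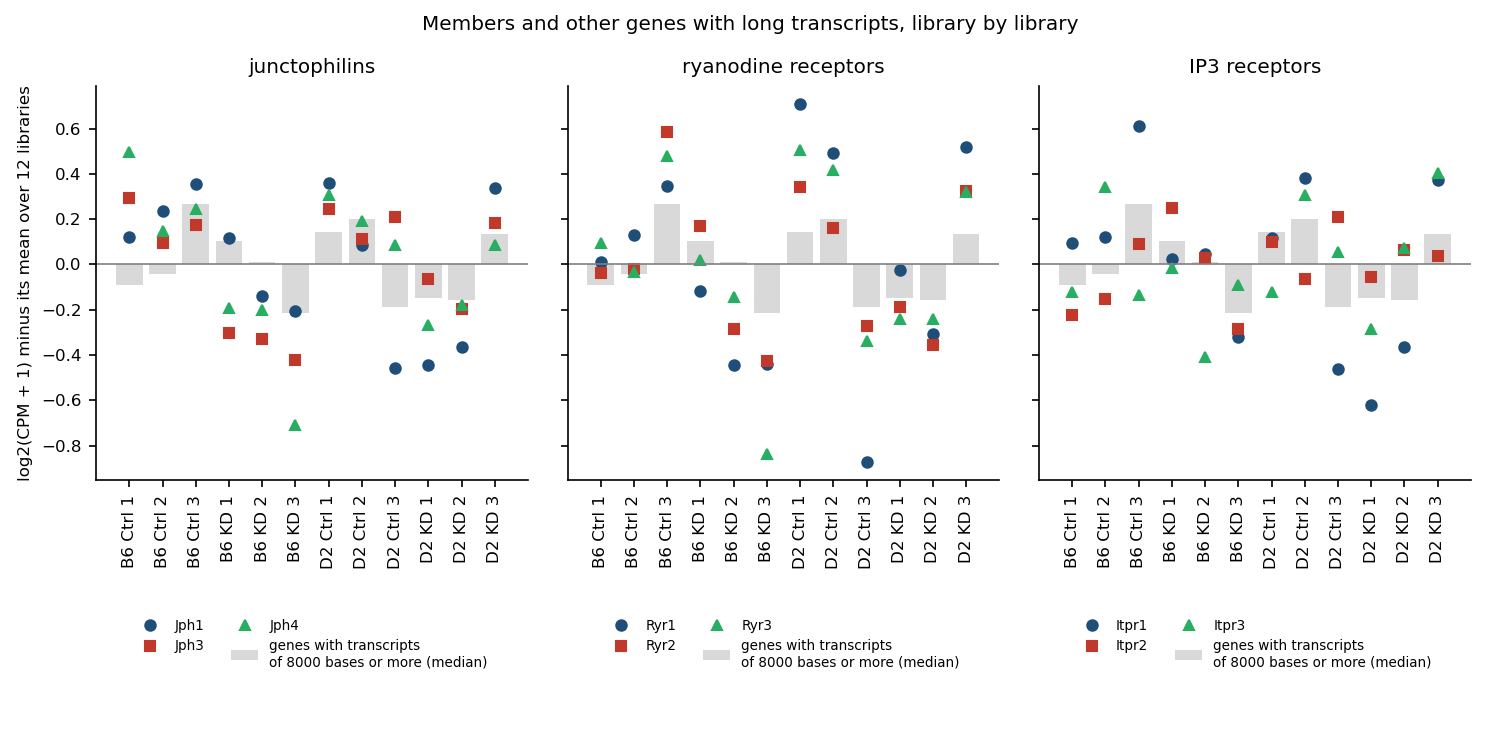
Deviation of each member from its mean over 12 libraries on the log2(CPM + 1) scale (points) and the median deviation of 863 other genes with transcripts of at least 8000 bases (grey bars), by library. The ryanodine receptors lie on the side of the bar in D2 Ctrl 3, at -0.87, -0.27 and -0.34, while Jph3 and Jph4 lie above 0 there. In B6 KD 3 Jph3 and Jph4 lie on the side of the bar, at -0.42 and -0.71, and in B6 KD 1 on the other side, at -0.30 and -0.19.

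With that long-transcript median of each library as a covariate, an alternative chosen after the data were seen, the B6 estimates of Ryr1, Ryr2, Ryr3 and Itpr1 were -0.33, -0.21, -0.35 and -0.20, and those of Jph3 and Jph4 were -0.52 (edgeR adjusted p = 0.0313) and -0.62 (adjusted p = 0.0386). In D2 the estimates of Ryr1, Ryr2, Itpr1 and Jph1 then changed sign, to 0.15, 0.03, 0.0036 and 0.0019, and those of Jph3 and Jph4 were -0.19 and -0.25. In B6 the 879 tested genes with such transcripts had a median log2 fold change of -0.09, against 0.0092 for the 14879 others, and in D2 the medians were -0.10 and 0.0095.

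Per kilobase of the longest transcript, all neighbours in the order of the members but Itpr2 and Ryr1 kept their order in each library. In CPM per kilobase of the longest transcript, the mean level over 12 libraries was 99.8 ± 21.2 for Jph4, 74.7 ± 12.5 for Jph3, 34.6 ± 8.80 for Itpr1, 16.7 ± 3.82 for Ryr2, 10.1 ± 2.13 for Jph1 and 5.33 ± 1.40 for Ryr3 (SD). Below them came Itpr2 at 2.85 ± 0.33, Ryr1 at 2.58 ± 0.83 and Itpr3 at 1.12 ± 0.22. Each was above the next in all 12 libraries, except that Itpr2 was above Ryr1 in 6 of 12. Ryr1 was just above Itpr2 in the 3 B6 Ctrl libraries and Itpr2 was above Ryr1 in the 3 B6 KD libraries, while in D2 Ctrl and in D2 KD both orders occurred. This order depends on the length taken and does not hold in every library per merged exon length. The merged exons of Ryr2, for example, have 28790 bases, against 16814 in its longest transcript.

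Jph4, Ryr2 and Itpr1 led their families in all 12 libraries per longest transcript. Jph4 took 48.4% to 57.7% of junctophilin level per length over the 12 libraries, Jph3 37.8% to 44.6% and Jph1 3.64% to 6.93%. Jph4 had 55.6% ± 1.81 (SD, n = 3) among the B6 Ctrl libraries and 53% ± 3.96 among those of B6 KD, a difference smaller than the SD of the KD libraries. Ryr2 took 63.8% to 72.3% of the ryanodine receptors, Ryr3 17% to 24.1% and Ryr1 6.94% to 12.7%. Itpr1 took 84.6% to 92.7% of the IP3 receptors. The share of Itpr2 was 5.46% to 6.28% in B6 Ctrl and 7.52% to 8.77% in B6 KD, which did not overlap, and 5.65% to 11.4% in D2 Ctrl and 6.08% to 10.7% in D2 KD, which did. These shares are descriptions without a test, and they depend on the length taken. Per merged exon length the median share was 47.8% for Jph4 and 44.5% for Jph3, against 54.6% and 39.6% per longest transcript, and Jph3 was above Jph4 in 4 of 12 libraries. The median share of Ryr2 was then 60.9%, against 67.6%, and Ryr2 and Itpr1 still led in all 12 libraries.

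**Figure D4:**
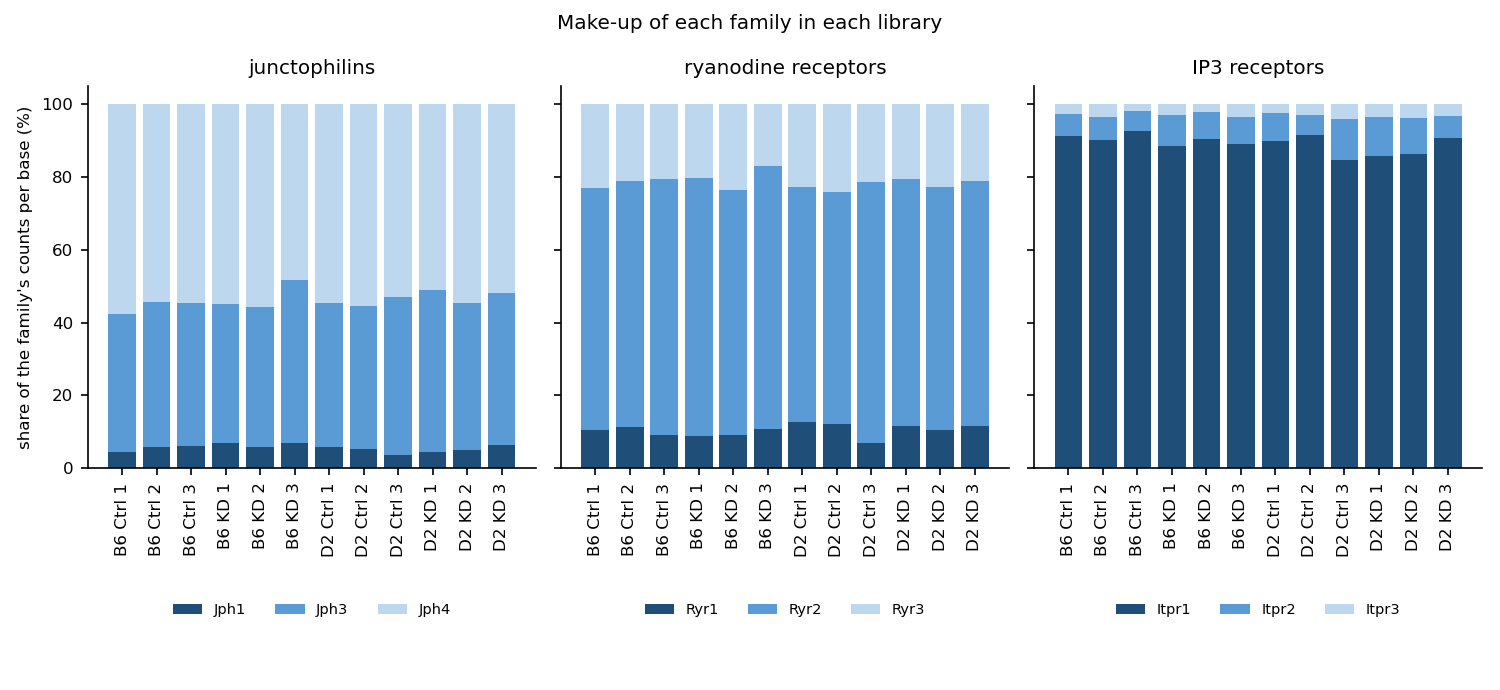
Share of each member in the summed level per length of its family (vertical axis, percent) in each of the 12 libraries (horizontal axis), for junctophilins, ryanodine receptors and IP3 receptors. Jph4 with Jph3, Ryr2 and Itpr1 take most of their families in all libraries, and the lowest share of Itpr1 is 84.6%, in D2 Ctrl 3.

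Among Ctrl mice no strain difference of a member passed the test. None was called, beside 14.0% of all genes, and the members' log2 differences, D2 against B6, ran from -0.24 to 0.18 with a smallest edgeR adjusted p of 0.522. Jph3 had a mean of 305.6 ± 21.1 CPM in B6 Ctrl and 305.9 ± 14.9 CPM in D2 Ctrl (SD, n = 3). Among KD mice 1 of 9 members was called, beside 15.0% of all genes. This was Jph3, higher in D2 KD at 265 ± 36.2 CPM than in B6 KD at 210.1 ± 9.03 CPM (SD, n = 3), with a log2 difference of 0.33 ± 0.10 (SE, edgeR adjusted p = 0.0494). The share of members called was below that of all genes. When single libraries were removed, 11 of 12 refits lost the call, all but that without D2 KD 2, with adjusted p up to 0.172 (without the library labelled D2 KD 3, where the log2 difference was 0.22). It was also lost with limma-voom, no filter, the total count as covariate and only the KD libraries. Averaged over treatments no member was called, beside 21.3% of all genes.

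The genes around these channels were examined as a list of 59 pathway genes, of which 58 were tested. In KD against Ctrl edgeR called 0 of the 58 in B6, beside 2.64% of all genes. It also called 0 of them in D2 and on average, beside 0% of all genes in both. In B6, 15 had an unadjusted p under 0.05, 5 higher and 10 lower, beside 20.6% of all genes. DESeq2 called 8 there, beside 10.7% of all genes, and limma-voom 0. In D2 there was 1 at an unadjusted p under 0.05, beside 2.85%, and DESeq2 and limma-voom called 0. On average there were 14, beside 19.2%, and DESeq2 called 5, beside 7.83%, and limma-voom 0. These counts are near the background. The median log2 fold change in B6 was -0.07 over the list, nearer to that of all genes than that of the members.

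By role, the median over the 9 junction channels (voltage-gated calcium channels and potassium channels) was -0.27 in B6 and -0.06 in D2. The 12 genes that make or remove IP3 had medians of -0.10 and -0.06, the 5 other membrane tethers -0.07 and -0.05, and the 5 genes of store-operated calcium entry -0.07 and 0.02. The 12 tested regulators of ryanodine receptors had -0.03 and -0.00043, the 8 regulators of IP3 receptors -0.02 and -0.03, and the 4 luminal calcium buffers -0.05 and 0.02. The 3 SERCA pumps, which refill the store, had 0.53 and 0.31, but Atp2a2, which carried nearly all of their level at 921 CPM, had -0.07 in B6 and 0.0014 in D2. The 3 genes with the smallest p in B6 were picked after their values were seen. They were Esyt3, an ER tether (-0.80 ± 0.22, SE, edgeR adjusted p = 0.0711), Itpka, the kinase that removes IP3 in dendrites (-0.60 ± 0.16, adjusted p = 0.0722), and Kcnn1, a small-conductance calcium-activated potassium channel (-0.40 ± 0.11, adjusted p = 0.0793). Their D2 estimates were 0.14, -0.13 and 0.01. None passed the interaction, but neither did any other gene. Their interaction estimates were 0.94 ± 0.31, 0.47 ± 0.23 and 0.40 ± 0.16 (SE), with edgeR unadjusted p of 0.0112, 0.0702 and 0.0281. An unadjusted p under 0.05 there was held by 5.91% of all genes.

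**Figure D5:**
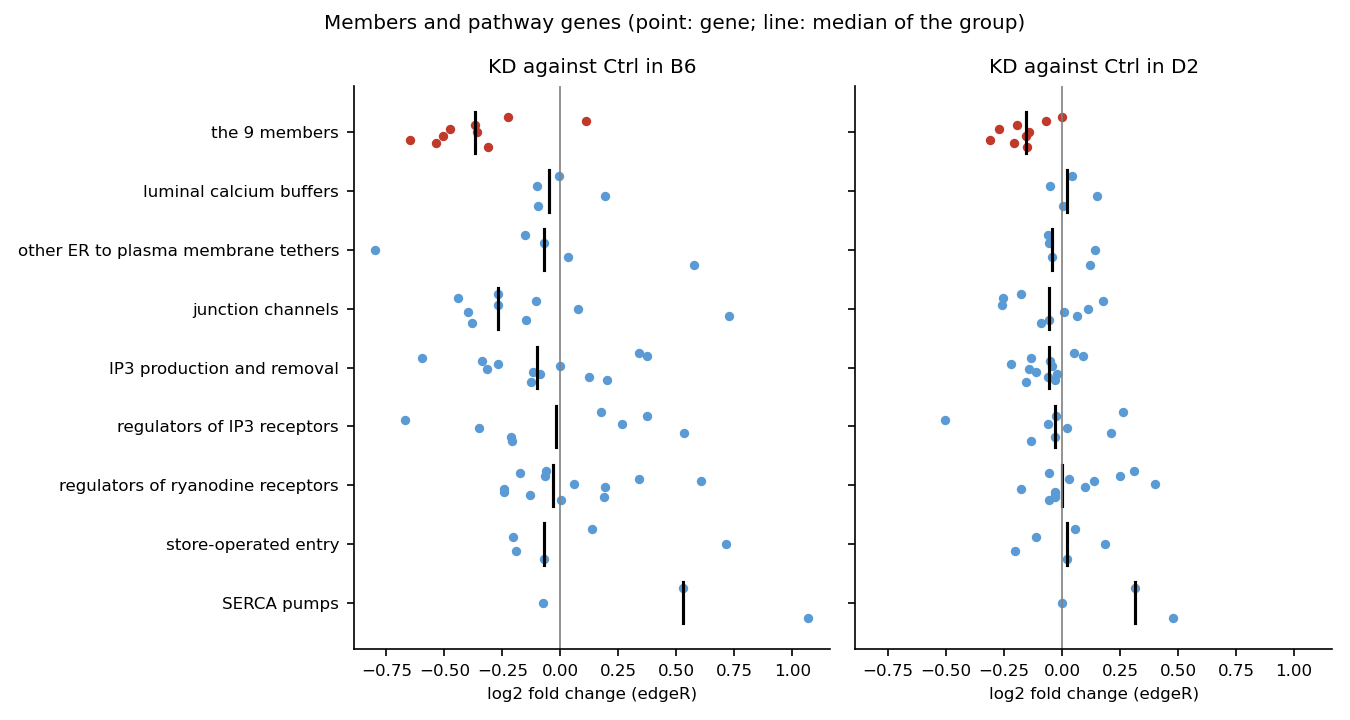
Log2 fold changes of KD against Ctrl (horizontal axis, edgeR) in B6 and D2 for each tested pathway gene (blue points) by role and for the 9 members (red points), with the median of each row as a line. The members' medians are -0.37 in B6 and -0.16 in D2, and no blue point passed the test.

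Some partners of the channels differed by strain, though in a smaller share than all genes did. Of the 58 pathway genes, 6 passed the test averaged over treatments, beside 21.3% of all genes tested. Of these 6, 3 were higher in D2 and 3 lower. Kcnn3, a small-conductance channel, was higher in D2 by a log2 difference of 2.54 ± 0.35 (SE, edgeR adjusted p = 0.000243) and Kcnma1, the large-conductance calcium-activated channel, by 0.89 ± 0.17 (adjusted p = 0.00288). Lower in D2 were the phospholipases Plcg1 (-0.51 ± 0.07, adjusted p = 0.000177) and Plcb4 (-0.86 ± 0.15, adjusted p = 0.00139) and the pump Atp2a3 (-0.83 ± 0.18, adjusted p = 0.00537). For each of these 5 genes, all D2 libraries lay on one side of all B6 libraries of the same treatment. These genes were picked by the strain test on the same libraries, so their separation is no further support. The share of all genes with such a separation was not counted. The strains were aligned to separate genomes, whose part in these differences was not tested.

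Other genes were ranked by how closely they followed each member over the 12 libraries, among 14179 candidates with a mean of at least 1 CPM. Jph3 was followed most closely by Sptbn4 (Pearson's r = 0.967, Spearman's rho = 0.951), Ccdc149 (0.967 and 0.916) and Phyhip (0.966 and 0.888). Jph4 was followed by Neurl1b (0.967 and 0.923), C1qtnf4 (0.966 and 0.972) and Tub (0.959 and 0.944). For Ryr2 they were Tanc2, Kif1b and Syt14 (r of 0.967 to 0.969), for Ryr3 Gpatch8, Tecpr2 and Med12l (0.976 to 0.978) and for Ryr1 Kcng2, Kcnq5 and Cntn2 (0.926 to 0.944). For Itpr1 they included Msl2 and Cramp1l (0.961 and 0.949) and for Jph1 Adam1a, Fam13a and Arhgap20 (0.932 to 0.94). Itpr2, followed by Eya4, Sebox and Add3 (0.864 to 0.894), and Itpr3, followed by Gli1, B230216G23Rik and Plcd3 (0.792 to 0.864), had lower values. Tanc2, Kif1b and Syt14 have longest transcripts of 11855, 10233 and 9274 bases, and Phyhip and Ccdc149 of 2838 and 3295. The values are descriptions over libraries that share groups and depth, picked as the highest of many.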

How the data were processed

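Hippocampal mRNA of 12 mice was sequenced as 75-base paired-end reads. The authors aligned reads to the C57BL/6J or the DBA/2J genome by strain with RSEM 1.2.12 and Bowtie2 2.2.0, and the labels name GRCm38. The deposited table of expected counts holds unnormalized RSEM estimates. A deposited signal table, counts divided by DESeq2 size factors, gave whole reads for 100% of 266508 values (tolerance 0.01) and was used as an alternative. On those reads edgeR called 420 genes in B6. Whether counting used strand is not given in the sources used here. Because of shared barcodes the authors sequenced all libraries again and pooled both runs for most libraries, which are not named.

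Expected counts were rounded, 27 symbols turned into dates were restored, and genes were filtered with filterByExpr over the 4 groups. Comparisons used edgeR 4.0.16 under R 4.3.3 (quasi-likelihood F-test, TMM, robust, older method), with 4 group means and Benjamini-Hochberg adjustment over 15853 genes at 0.05. SE was taken as |log2 fold change|/√F. DESeq2 1.42.0 and limma 3.58.1 (voom) were alternatives. Fits were tested on simulated data. Levels are TMM CPM, with 1 added before logs. Lengths came from GENCODE M21, matched for 98.6% of genes. Promoters came from RefSeq, matched for 6 of 9 members. Replicate numbers follow deposit order and pair nothing. Replicates differed beyond sampling noise in every pair (chi-square per degree of freedom 23.4 to 110). Each library is a separate mouse, per the labels.

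The members and lists were chosen with earlier results of these data known. Named were all members, Hp1bp3, up to 8 called pathway genes per comparison and the 3 genes most like each member. Some genes that this rule names are not reported here.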

Additional observations from a re-analysis of the deposited data

How the results depend on the processing

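The count of members called for KD in B6 (1, Jph3) became 2, with Jph4 added, under DESeq2, RLE size factors, the newer quasi-likelihood method, no robust estimation and the long-transcript covariate. It became 0 with the total count as covariate (Jph3 edgeR adjusted p = 0.0605). Over all genes, 418 were called in the main fit. In the fits named, in that order, 1688, 471, 612, 481, 722 and 0 were called. The count of members ranged from 0 to 2 when 1 library was left out. The call of Jph3 was lost without B6 Ctrl 1, B6 Ctrl 3, B6 KD 1, B6 KD 2 or D2 Ctrl 1, where 0 of all genes were called. It was also lost without D2 Ctrl 2 or D2 KD 1, where 45 and 124 genes were called. Its edgeR adjusted p went up to 0.178, while its log2 fold change stayed between -0.61 and -0.51. Averaged over strains the count of 0 became 2 under DESeq2 (7.83% of all genes) and ranged from 0 to 2 when 1 library was left out. It was 2 without B6 KD 3 (400 genes called) or without the library labelled D2 KD 3 (799 genes). It was 1 without D2 Ctrl 3 (326 genes). For D2 against B6 in KD the count of 1 became 0 with limma-voom, no filter, the total count as covariate and only the KD libraries. Those fits called 2428, 2285, 2158 and 1541 of all genes, against 2373 in the main fit. The count of members ranged from 0 to 1 when 1 library was left out, staying at 1 only without D2 KD 2. The counts for KD in D2, the interaction, strain in Ctrl and strain averaged were 0 under every alternative run. The cause of these changes was not tested. The long-transcript covariate was taken from these same libraries, and its construction removes variation that a gene shares with long genes.

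In D2 with the long-transcript covariate Jph1, Ryr1, Ryr2 and Itpr1 became 0.0019, 0.15, 0.032 and 0.0036, and with RLE factors Itpr3 became -0.0011. When 1 library was left out the D2 estimates ranged from -0.45 to 0.0402 for Jph1, from -0.51 to 0.14 for Ryr1, from -0.54 to 0.0037 for Itpr1 and from -0.20 to 0.16 for Itpr3. For Itpr2 they ranged from -0.0599 to 0.21 in B6 and from -0.0721 to 0.0654 on average. In the interaction and the strain comparisons, members changed sign in 11 of 198, 22 of 207, 25 of 207 and 8 of 198 estimates (interaction, Ctrl, KD, averaged). Among them was the interaction of Ryr1, the largest of a member at 0.35, which was -0.0056 without D2 Ctrl 3. All 18 KD to Ctrl ratios from the authors' normalized counts moved by less than the spread between replicates. No paired analysis was possible because the replicate numbers come from the order of deposit and pair nothing. The long-transcript covariate, the recovered reads and the merged exon length were chosen after the data were seen.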
